A study of Saccharomyces cerevisiae with 2 samples.

Results

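The PHO84 locus of the budding yeast Saccharomyces cerevisiae was examined in 2 maps of mononucleosomal DNA. It is 1 gene, YML123C, taken with a window of 12 kb on chromosome 13 from 20001 to 32000 (sacCer1, the build of the files). The window is set by its position and makes up 60 of 60152 bins of 200 bp of the nuclear genome. The coding region lies on the minus strand from about 24037 to 25800. Its span is known to within about 50 bp in this build. The promoter was taken as the 1000 bp from 25801 to 26800. Distances below are counted from the coding start, and upstream means towards higher coordinates.

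PHO84 encodes the high-affinity phosphate transporter of the yeast plasma membrane, a proton-coupled symporter. It is among the genes most strongly induced when phosphate runs out. The transcription factor Pho4 activates it. In phosphate-rich medium the cyclin-dependent kinase pair Pho80 and Pho85 phosphorylates Pho4 and keeps it out of the nucleus. Promoters of the phosphate regulon, that of PHO84 included, are textbook cases of nucleosome remodelling and loss on induction. In the RefSeq gene table of assembly R64, TUB3, a minor alpha-tubulin gene, is the next protein-coding gene on the 3′ side of PHO84, followed by PGA3. On the 5′ side follow YML122C, GTR1, which encodes a small GTPase of nutrient signalling, NDI1, which encodes the internal NADH dehydrogenase of mitochondria, and YML119W. That table is of another build, so it was used for the order of genes only.

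Both libraries were made from 1 yeast strain with the alleles PHO4-MYC::TRP1 and CBF1-3HA::LEU2. Its Pho4 carries a MYC tag and Cbf1, a second factor that binds the same core motif, carries an HA tag. No untagged strain was included. Log-phase cells were kept for 3 hours without phosphate and then for 80 minutes in medium with phosphate at 0 mM (the starvation library) or at 10 mM (the high phosphate library), so the latter cells had been starved as well. Micrococcal nuclease cut the linker DNA, and fragments of mononucleosome size were sequenced. RNA was not measured, so whether PHO84 was transcribed in these cultures is not known from these data. With 1 library per condition no test between conditions is possible, and the effects of library and condition cannot be told apart.

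The starvation library held 1001229 nuclear tags (83.2 per kb) and the high phosphate library 2598022 (216 per kb). Each tag was moved 73 bp towards the middle of its fragment, and densities are given relative to the nuclear mean of the same library. Ratios are starvation over high phosphate after scaling to the nuclear tag totals. Their 95% exact conditional binomial (Clopper-Pearson) intervals cover counting error only and say nothing of the spread between cultures. The deposited files hold at most 1 tag for each position on each strand, which compresses strong positions, more so in the deeper library.

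At the PHO84 promoter the starvation library had more nucleosomal tags relative to its depth than the high phosphate library. The promoter held 141 tags in starvation and 182 in high phosphate. This was 1.69 times the nuclear mean in starvation and 0.843 times in high phosphate. The ratio was 2.01-fold (95% interval 1.60 to 2.52), a log2 ratio of 1.01 (0.68 to 1.33). Of 11554 nuclear windows of 1 kb on the same grid, 6.37% were at least 2-fold higher in starvation and 9.36% at least 2-fold lower, and 93.8% had a ratio below that of the promoter. The median window had a log2 ratio of -0.24, with an SD over windows of 0.69. The direction is opposite to the loss of promoter nucleosomes on induction given above as background. Which library is which rests on the sample titles and could not be checked from the tags. The promoter lay in the upper tail of a broad distribution, as the histogram of 1 kb windows shows.

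**Figure D1:**
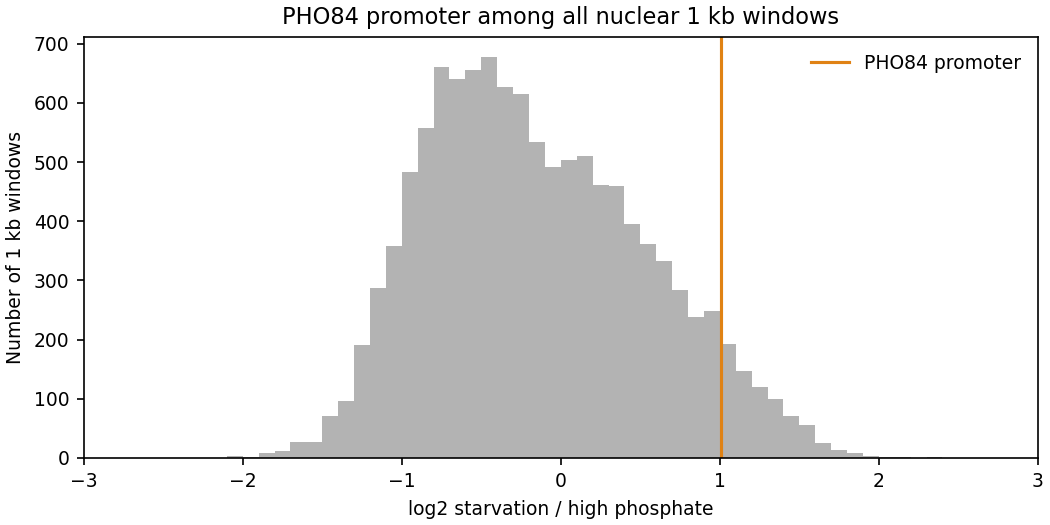
Histogram of log2 ratios (starvation over high phosphate) in nuclear windows of 1 kb with at least 20 tags (x axis, log2 ratio; y axis, number of windows); the line is the PHO84 promoter. The promoter, at 1.01, lies above 93.8% of the windows.

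Within the promoter the difference was uneven, and the bin next to the coding start had a log2 ratio below 0, with an interval that includes 0. The 200 bp nearest to the coding start held 21 starvation tags and 81 high phosphate tags, a log2 ratio of -0.57 (-1.34 to 0.13). The bin from 201 to 400 bp upstream held 48 and 43 tags, which is 2.90-fold higher in starvation (log2 ratio 1.53, 0.91 to 2.16). From 401 to 600 bp there were 39 and 30 tags (log2 ratio 1.75, 1.03 to 2.49). From 601 to 800 bp there were 26 and 20 tags, with the same log2 ratio of 1.75 and a wider interval of 0.86 to 2.67. The last bin, from 801 to 1000 bp, was sparse in both libraries, with 7 and 8 tags. Its interval, from -0.51 to 2.84, includes 0. The promoter had 4 bins with 20 or more tags over both libraries. In starvation 3 of them were at least 2-fold higher and 0 at least 2-fold lower. Over 55384 nuclear bins of 200 bp the shares were 13.2% and 26.9%.

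Taken from 200 bp to 1 kb upstream, a division made after the bin values were seen, the promoter held 120 starvation tags and 101 high phosphate tags. That stretch stood at 1.80 times the nuclear mean in starvation and 0.585 times in high phosphate, a ratio of 3.08-fold (2.35 to 4.06).

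**Figure D2:**
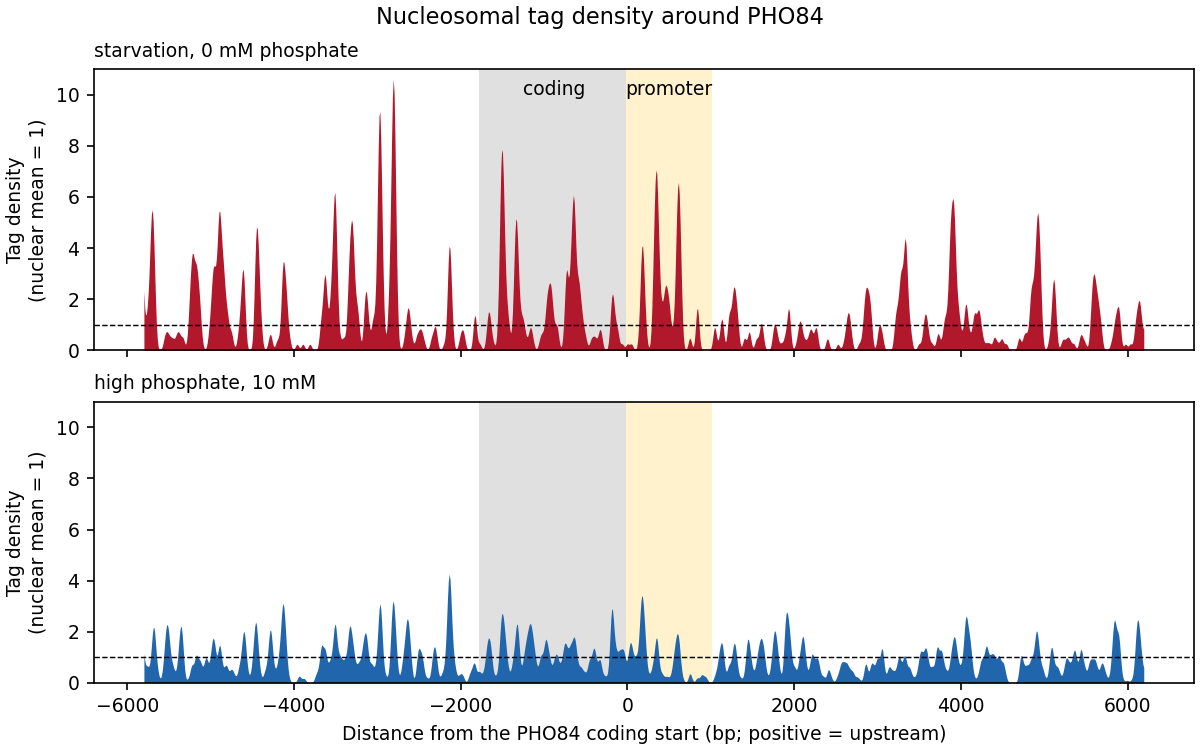
Density of moved tags, smoothed with a Gaussian SD of 20 bp, along the 12 kb window in each library (x axis, distance from the PHO84 coding start in bp; y axis, density with the nuclear mean at 1, dashed line). Grey marks the coding region and yellow the promoter. The starvation profile consists of fewer and taller peaks, up to 10.6 times the mean, and the high phosphate profile of lower peaks, up to 4.26 times. Over the nuclear genome starvation also had fewer called dyads, 41807 against 53837.

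Most nucleosome positions called in the promoter were shared by the libraries, and each library also had 1 that the other lacked. Dyads, the midpoints of nucleosomes, were called as maxima of the smoothed density above the nuclear mean and at least 120 bp apart. Each library had 4 dyads in the promoter, and 3 of the 4 coincided with one of the other library to within 20 bp. The dyad nearest to the gene among these 3 lay 177 bp upstream in starvation and 174 bp upstream in high phosphate. The next lay 344 and 347 bp upstream. The outermost lay 609 and 599 bp upstream. The displacement between libraries was therefore 3, 3 and 10 bp.

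The heights of these 3 nucleosome positions were ordered differently in the libraries. In high phosphate the position nearest to the gene was the tallest, at 3.43 times the nuclear mean, against 1.78 and 1.94 times at the positions further out. In starvation it was the lowest of the 3, at 4.14 times the mean, against 7.08 and 6.59 times. Within 40 bp of the starvation dyad at 177 bp there were 22 starvation tags and 52 high phosphate tags, a log2 ratio of 0.13 (-0.66 to 0.88). Around the dyad at 344 bp there were 44 and 26 tags, a log2 ratio of 2.13 (1.40 to 2.89). Around the dyad at 609 bp there were 39 and 28 tags, a log2 ratio of 1.85 (1.12 to 2.61). These tags were counted at maxima called in starvation, where that library is high. Around the high phosphate dyads at 347 and 599 bp the log2 ratios were 2.16 (1.41 to 2.93) and 1.68 (0.94 to 2.42). Around the one at 174 bp it was 0.13 (-0.66 to 0.88). With the dyads of either library the intervals of the outer positions lay above 0, and that of the innermost one includes 0.

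Both strands carried these positions. At 344 bp the starvation tags divided into 23 on the plus strand and 21 on the minus strand, and the high phosphate tags into 13 and 13. At 609 bp the minus strand had more in both libraries, with 27 of 39 tags in starvation and 18 of 28 in high phosphate. At 177 bp the plus strand had more, with 17 of 22 in starvation and 31 of 52 in high phosphate. The starvation dyad without a partner, 837 bp upstream, rested on 7 minus-strand tags and 0 plus-strand tags. Plus-strand tags at this dyad would start inside a stretch, from 714 to 818 bp upstream, where neither library had a tag start. High phosphate likewise had 0 plus-strand tags there, and 2 on the minus strand. The division between strands therefore says nothing about this call, which rests on fewer tags than the others.

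**Figure D3:**
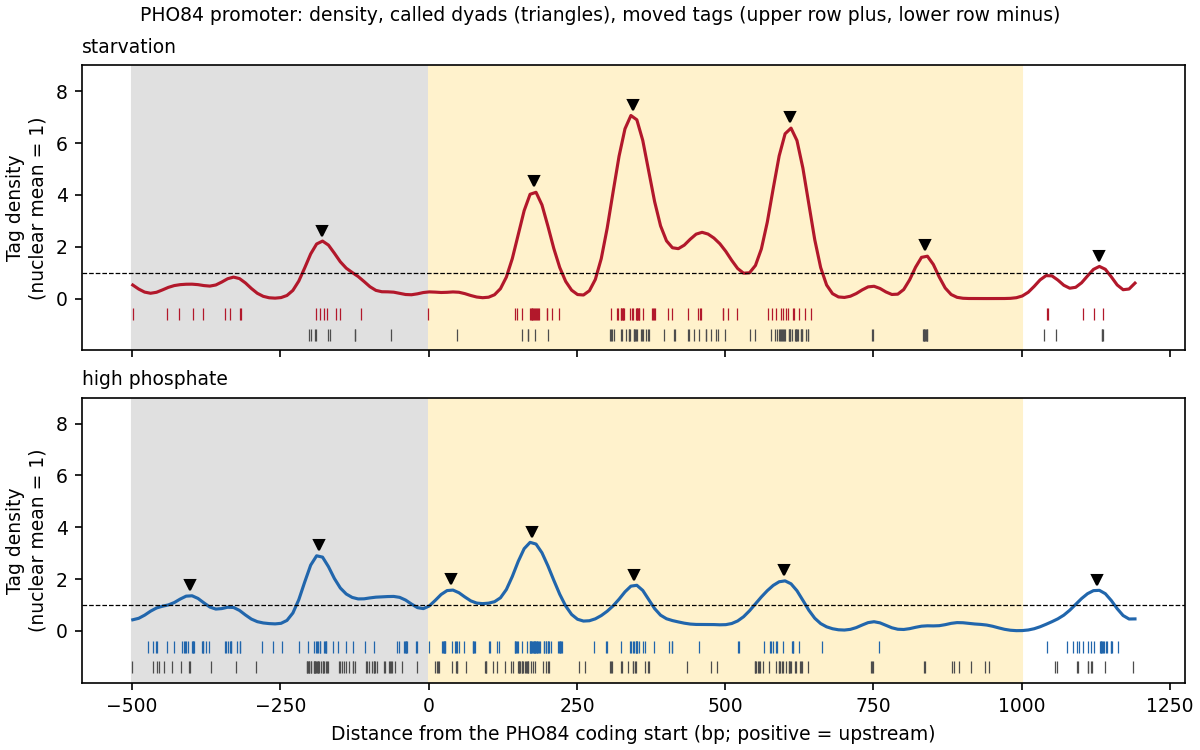
Smoothed tag density from 500 bp inside the coding region to 1200 bp upstream (x axis, distance from the coding start in bp; y axis, density with the nuclear mean at 1), with called dyads as triangles and single moved tags as ticks, plus strand in the upper row and minus strand in the lower row. The starvation peaks at 344 and 609 bp reach 7.08 and 6.59 times the mean, and the stretch around the coding start holds few ticks in starvation and many in high phosphate.

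The middle and the outermost of these dyads were separated by more than a nucleosome repeat. Their spacing was 265 bp in starvation against 252 bp in high phosphate, whereas the inner pair was 167 and 173 bp apart. The lowest density in the wide gap was 0.957 times the nuclear mean in starvation, 535 bp upstream, and 0.238 times in high phosphate, 494 bp upstream. Relative to the mean height of the flanking dyads, these low points were 14.0% in starvation and 12.8% in high phosphate. The starvation profile also had a maximum inside the gap, 461 bp upstream, at 2.55 times the mean. It lay too close to the dyad at 344 bp to be called, and high phosphate had no maximum above the mean there. Between the inner pair the profile fell to 0.125 times the mean in starvation and 0.379 times in high phosphate, which is 2.23% and 14.6% of the flanking heights.

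The far end of the promoter was sparse in both libraries, at 0.421 times the nuclear mean in starvation and 0.185 times in high phosphate from 801 to 1000 bp upstream. In positions before tags were moved, the longest stretch of the 12 kb window with no tag start in either library ran for 105 bp. It lay from 26514 to 26618, which is 714 to 818 bp upstream, and moved tags of both libraries fall inside it. The lowest smoothed density of the promoter lay 922 bp upstream in starvation, where it was 0, and 995 bp upstream in high phosphate, at 0.012 times the mean. How many positions there can be placed uniquely was not measured.

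Around the coding start the libraries differed in the other direction. The 200 bp centred on the coding start, a stretch picked after the profile was seen, held 3 tags in starvation and 53 in high phosphate. The density was 0.180 times the nuclear mean in starvation and 1.23 times in high phosphate. Starvation was 6.81-fold lower, with a 95% interval of 2.21 to 34.1, and the log2 ratio was -2.77 (-5.09 to -1.14). Because the stretch was placed on the low point, its ratio is a description. The bins of the fixed grid on either side of the coding start had log2 ratios of -0.75 (-1.64 to 0.04) and -0.57 (-1.34 to 0.13), with intervals that include 0. Of 55384 nuclear 200 bp bins, 26.9% were at least 2-fold lower in starvation and 1.05% had a log2 ratio below -2.77. Those bins lie on a fixed grid and the stretch was picked, so these shares do not rank it. The ratio of the stretch rests on 3 starvation tags. When the stretch was moved by 50 bp, the uncertainty of the coding start, the log2 ratio was -1.85 with 6 and 56 tags or -2.32 with 4 and 52 tags. With tags not moved to the fragment middle it was -1.21, from 11 and 66 tags.

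Dyads were called from the same smoothed tags, so they describe this stretch again and are no separate support. In starvation the dyad 180 bp inside the coding region was followed by the one 177 bp upstream, with 357 bp between them and no dyad in the interval. In high phosphate a dyad was called there, 37 bp upstream of the coding start, at 1.59 times the mean. Within 40 bp of it there were 25 high phosphate tags, 16 on the plus strand and 9 on the minus strand, and 2 starvation tags. The log2 ratio was -2.27 (-5.39 to -0.26). This dyad was called in high phosphate only, so the tags were counted where that library is high. Its ratio is a description.

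The coding region as a whole differed less than the promoter. It held 227 starvation tags and 455 high phosphate tags, or 129 and 258 per kb, a ratio of 1.29-fold (1.10 to 1.52). The log2 ratio was 0.37 (0.14 to 0.61), above 78.8% of 11474 nuclear stretches of the same length, which had an SD of 0.59. The 500 bp next to the coding start were lower in starvation, at 26 against 120 tags (log2 ratio -0.83, -1.50 to -0.21). The remaining 1264 bp were higher, at 201 against 335 tags (log2 ratio 0.64, 0.38 to 0.90). Among the 9 bins that touch the coding region, 2 were past 2-fold upwards in starvation and 1 downwards, beside 13.2% and 26.9% of nuclear bins.

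Inside the coding region the starvation tags were gathered on a few positions. The dyad 1506 bp into the gene stood at 7.91 times the nuclear mean in starvation, and its partner in high phosphate at 2.73 times. The dyad at 648 bp stood at 6.08 and 1.80 times. The one at 1336 bp stood at 5.19 and 2.32 times. The dyad at 180 bp had the opposite order, at 2.22 times in starvation and 2.93 times in high phosphate. So had the one at 1663 bp, at 1.52 and 1.76 times. For tags within 40 bp of these last dyads the log2 ratios were -0.43 (-1.49 to 0.52) and -0.48 (-1.82 to 0.68). Both intervals include 0. The bin with the lowest ratio, from 24601 to 24800, held 8 starvation tags and 58 high phosphate tags (log2 ratio -1.48, -2.76 to -0.41). Of 6 starvation dyads in the coding region 5 had a partner within 20 bp, as had 5 of 9 high phosphate dyads. Over the nuclear genome the shares were 74.9% in starvation and 58.1% in high phosphate.

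**Figure D4:**
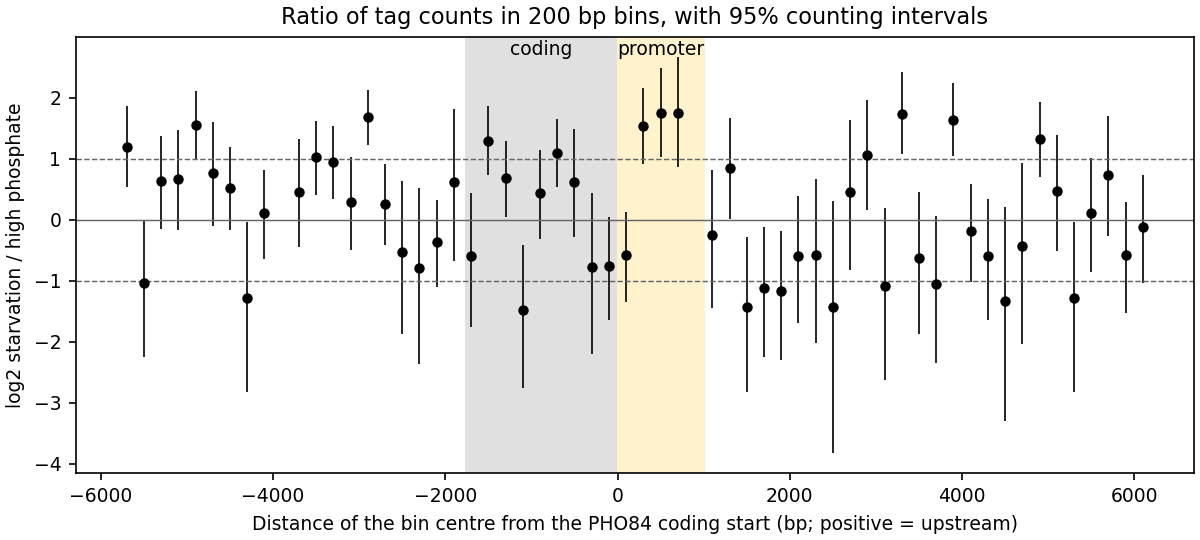
Log2 ratios (starvation over high phosphate) in the bins of 200 bp with at least 20 tags over both libraries (x axis, distance of the bin centre from the coding start in bp; y axis, log2 ratio; bars, 95% exact counting intervals; dashed lines, 2-fold). The 3 promoter bins from 201 to 800 bp upstream lie above the upper dashed line, and the 3 bins around the coding start lie below 0.

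Compared within each library, which needs no scaling, the promoter took more tags relative to the coding region in starvation. Promoter density was 1.10 times coding density in starvation and 0.706 times in high phosphate. The ratio of these was 1.55-fold, a log2 difference of 0.63 with an exact conditional interval of 0.23 to 1.04. Against the rest of the window the promoter stood at 1.38 times in starvation and 0.892 times in high phosphate, also a log2 difference of 0.63 (0.28 to 0.98). Differences of this size were frequent elsewhere. Over 11474 nuclear 1 kb windows set against the adjoining stretch of the coding length, the log2 difference had an SD of 0.75, and 81.7% lay below that of PHO84. The coding region and the rest of the window did not differ detectably at this depth (log2 difference -0.0055, -0.27 to 0.26).

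The surroundings of PHO84 were also denser in starvation, mainly on the 3′ side. The rest of the window held 944 starvation tags and 1885 high phosphate tags (log2 ratio 0.38, 0.26 to 0.49). The part beyond the 3′ end of PHO84, from 20001 to 24036, held 539 and 903 tags (log2 ratio 0.63, 0.47 to 0.79). The part beyond the promoter, from 26801 to 32000, held 405 and 982 (log2 ratio 0.10, -0.07 to 0.27). The log2 difference between these flanks was 0.53 (0.30 to 0.77). The whole window had a log2 ratio of 0.43, above 92.3% of 984 nuclear windows of 12 kb.

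Outside the gene and its promoter, the bins furthest above 0 by the nearer interval bound began at 22801, 29001 and 29601. The first held 96 starvation tags and 78 high phosphate tags (log2 ratio 1.68, 1.23 to 2.13). The bin from 29001 held 45 and 35 tags (1.74, 1.07 to 2.42), and that from 29601 held 54 and 45 (1.64, 1.04 to 2.24). These ratios are as high as those of the promoter bins. The bins furthest below 0 adjoined each other from 27201 to 27800, that is 1401 to 2000 bp upstream of PHO84. They held 7 and 49, 10 and 56, and 10 and 58 tags, with log2 ratios of -1.43, -1.11 and -1.16. Among the 58 bins of the window with enough tags, 13 (22.4%) were past 2-fold upwards in starvation and 11 (19.0%) downwards, beside 13.2% and 26.9% of all nuclear bins. In bins of 100 bp 28 were higher and 20 lower, beside 16.6% and 29.3% of nuclear bins. In bins of 500 bp 3 were higher and 0 lower, beside 9.24% and 16.7%.

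Dyads matched between the libraries, by the rule within 20 bp, had height ratios (starvation over high phosphate) from 0.49 to 4.07 in the window. The window had 43 dyads in starvation and 53 in high phosphate, and 29 pairs lay within 20 bp, with a median displacement of 5 bp. They made up 67.4% of the starvation dyads and 54.7% of the high phosphate dyads. Over the nuclear genome, with 41807 and 53837 dyads, these shares were 74.9% and 58.1%. The dyad was taller in starvation in 20 of 29 pairs, and the median height ratio was 1.60. Over 31293 nuclear pairs it was close to 1, and 50.1% were taller in starvation. The promoter positions at 344 and 609 bp, with height ratios of 3.99 and 3.40, ranked 2 and 3 among the 29. They lay above 97.4% and 93.9% of the nuclear pairs. The position at 177 bp, with a ratio of 1.21, lay above 62.0%.

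**Figure D5:**
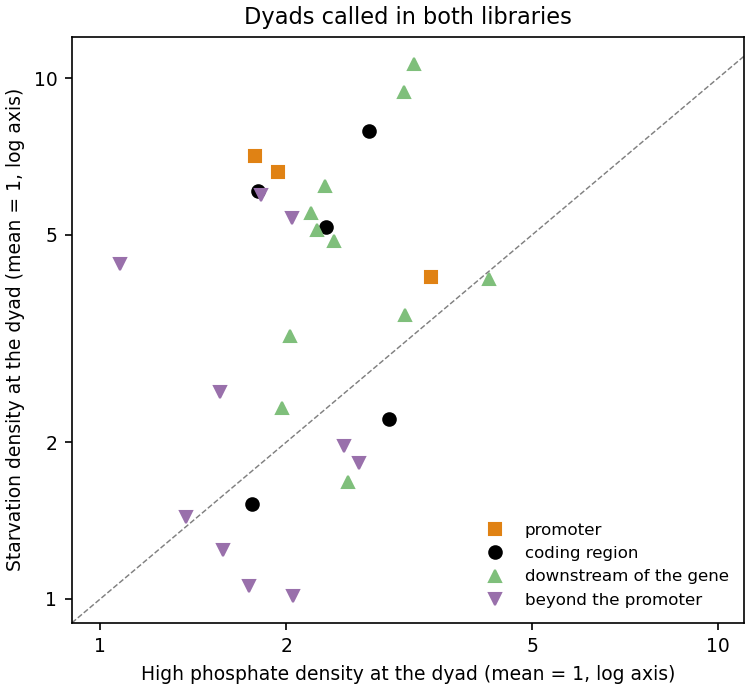
Height of the 29 dyads called within 20 bp of each other in both libraries (x axis, high phosphate density; y axis, starvation density; both log axes with the nuclear mean at 1). Points above the dashed line of equality are taller in starvation; 2 of the 3 promoter positions, at height ratios of 3.99 and 3.40, lie far above it.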

How the data were processed

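Members and regions were chosen with earlier results of these data known. Each file deposited by the authors lists chromosome, position and strand of every uniquely placed tag, with no level attached and no other value, and 0 rows are repeated. Per the labels' protocols, the genome release was sacCer1; the sources used here give neither aligner nor read length. Positions were used as deposited. Minus-strand positions were taken as 5′ ends of reads, since at the edges of 272 untagged stretches (over 400 bp) the most common offset from the plus-strand positions was 19 bp to the right.

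Tags were moved 73 bp, counted in the regions, and scaled to nuclear tag totals. Bins needed at least 20 tags over both libraries, and a call was a 2-fold difference. The strand offset was 155 bp (starvation) and 142 bp (high phosphate). Dyads used a Gaussian SD of 20 bp. All promoter bins and all matched promoter dyads are given. Outside gene and promoter, the 3 highest and 3 lowest bins by the interval bound nearest to 0 are named. Searches for CACGTG and CACGTT and the other phosphate genes were not analysed here. The computations used Python 3.11.15, numpy 2.4.6 and scipy 1.17.1, and were tested on simulated data.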

Additional observations from a re-analysis of the deposited data

How the results depend on the processing

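No paired analysis was possible because there was only 1 library for each condition, and none could be left out. Scaling to the median 10 kb bin raised every log2 ratio by 0.073. Under it and under unmoved tags, tags moved by 0.5 times the strand offset (77 and 71 bp), thinning of the high phosphate library, a correction for filled positions, single strands, edges moved by 50 bp and a promoter of 500 bp, the promoter and region ratios stayed within their counting intervals. The promoter ranged from 0.82 to 1.17 on the log2 scale, and its difference from the coding region from 0.32 on the plus strand to 0.97 on the minus strand. Leaving out each promoter bin, an alternative chosen after seeing the data, gave 0.80 to 1.62. Without the bin at the coding start the promoter reached 1.62, its difference from the coding region 1.25 and that from the rest of the window 1.25. Among the promoter bins only this one had a log2 ratio below 0, and its interval includes 0. The 200 bp around the coding start ranged from -3.38 to -1.21, the latter with unmoved tags (11 and 66 tags). The counts of 2-fold bins changed with the bin size, which also sets how many bins the window holds, so counts at different sizes are not comparable. With 100 bp bins 20 were lower and 28 higher, beside 29.3% and 16.6% of nuclear bins. With 500 bp bins 0 were lower and 3 higher, beside 16.7% and 9.24%. Lower bins numbered 7 with unmoved tags and 7 after thinning, against 11. Dyad counts stayed within 1.5 times, from 37 to 57 in starvation and from 50 to 62 in high phosphate. Thinning was not run for starvation dyads, since that library was not thinned.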

Other observations

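Tags were spread less evenly along the window in starvation. Over its 60 bins of 200 bp the variance was 14.7 times the mean in starvation and 6.53 times in high phosphate, or 4.08 times after thinning to equal nuclear totals. The median over 984 nuclear windows of 12 kb was 12.5 and 6.17, so the PHO84 window lay above 71.5% and 57.8% of them. Across the 60 bins Pearson's r between the tag counts of the libraries was 0.48, beside a median of 0.41 over the 984 windows. These bins share base composition and unique placement, and r is given as a description.

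In the promoter, 60 combinations of position and strand carried a tag in both libraries, which is 41.7% of those tagged in starvation and 34.1% of those tagged in high phosphate. Over the nuclear genome the shares were 47.3% and 18.2%. In positions before tags were moved, the longest stretch of the window without a tag start was 187 bp in starvation, from 30165 to 30351. In high phosphate it was 107 bp, from 21839 to 21945.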
